A study of Mus musculus with 4 samples.

Results

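Krüppel-like factors (KLFs) were followed in mouse lung RNA across 2 genotypes. The members are the 10 genes Klf2, Klf3, Klf4, Klf5, Klf6, Klf7, Klf9, Klf10, Klf13 and Klf15, found by symbol with 1 Ensembl identifier each among the 46603 genes of the deposited unfiltered table. All 10 are also among the 12850 genes of the deposited filtered table, on which the tests were run. The SA group had 2 lung samples from mice carrying the Ifnar1 S526A allele, named for a serine-to-alanine change in a chain of the type I interferon receptor. The WT group had 2 lung samples from Ifnar1+/+ mice. Both genotypes were littermates of the C57BL/6 background, 6 to 8 weeks old, and every mouse was injected intravenously with 100 µl of medium conditioned by B16F10 melanoma cells, 3 times per week over 3 weeks. Lungs of untreated mice were not analysed here, so the medium is shared by both groups and each difference is one of genotype under that medium. The labels name no cell type to which the allele is restricted, and they do not number the animals.

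KLFs are DNA-binding proteins with zinc fingers at the carboxyl end that recognise GC-rich and CACCC sequences. They are the nearest relatives of the SP factors. Klf2 and Klf4 are the members best known in blood vessels, where laminar flow raises both through the kinases MEK5 and ERK5 and the MEF2 factors, and where they favour a quiescent endothelium. Klf2 was first described as a lung factor, and mice without it have defects of late lung development. Several other members respond quickly to growth factors, TGF-beta or glucocorticoids, and Klf5 and Klf15 are known from epithelium and from muscle, fat and liver.

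Values are log2 CPM, the log2 of a gene's reads, with 0.5 read added, scaled to the total of its library. The libraries held 27381916 reads in SA 1, 38378936 in SA 2, 30611946 in WT 1 and 31645038 in WT 2, which puts 3 reads, used as the detection floor, between 0.0782 and 0.11 CPM. The floor covers counting error only. With 2 samples in each group the spread may be partly technical, so p-values speak only of how these samples vary. Adjusted p is from limma with Benjamini-Hochberg adjustment over the 12850 genes, called at 0.05. Markers of alveolar type 2 cells summed to 38550 and 31910 CPM in SA and 41590 and 32860 CPM in WT, so the samples carried these defining lung genes. Cardiac muscle markers were also present, at 1323 and 2257 CPM in SA and 438.3 and 768.4 CPM in WT, and differed within each genotype. They also differed between genotypes. All 9 were higher in SA without overlap, with a median difference of 1.86, and limma called 1 of them. Ifnar1 itself differed by 0.013 ± 0.084 (SE), which does not check the genotype since a change of 1 amino acid need not alter the mRNA level.

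The promoters of Klf2, Klf4 and Klf7, the members with the largest differences, are shown with that of Klf15, whose genotypes overlapped. Each is the 300 bases from 250 before to 50 after the gene's start in RefSeq on GRCm38.p6, 5′ to 3′ on the gene's strand. Gene positions given with the values are those of GENCODE M21, whose starts can differ: the Klf7 window lies inside the GENCODE gene and does not hold its GENCODE start. Klf2 is at chr8:72318812-72319111 (plus strand), Klf4 at chr4:55532426-55532725 (minus strand), Klf7 at chr1:64121340-64121639 (minus strand) and Klf15 at chr6:90462326-90462625 (plus strand). Capitals mark matches to CACCC on either strand, the core of a KLF site, and to the MEF2 consensus.
Klf2: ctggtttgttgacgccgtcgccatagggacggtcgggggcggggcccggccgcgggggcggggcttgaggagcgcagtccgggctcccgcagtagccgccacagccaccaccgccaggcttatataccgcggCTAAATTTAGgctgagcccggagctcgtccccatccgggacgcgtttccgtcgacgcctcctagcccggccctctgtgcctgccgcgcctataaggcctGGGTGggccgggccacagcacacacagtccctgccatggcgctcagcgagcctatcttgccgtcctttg
Klf4: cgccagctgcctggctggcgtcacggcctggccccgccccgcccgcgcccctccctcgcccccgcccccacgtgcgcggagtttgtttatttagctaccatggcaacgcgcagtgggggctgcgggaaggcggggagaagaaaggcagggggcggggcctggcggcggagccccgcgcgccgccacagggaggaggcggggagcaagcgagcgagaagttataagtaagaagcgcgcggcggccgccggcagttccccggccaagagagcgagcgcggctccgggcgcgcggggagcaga
Klf7: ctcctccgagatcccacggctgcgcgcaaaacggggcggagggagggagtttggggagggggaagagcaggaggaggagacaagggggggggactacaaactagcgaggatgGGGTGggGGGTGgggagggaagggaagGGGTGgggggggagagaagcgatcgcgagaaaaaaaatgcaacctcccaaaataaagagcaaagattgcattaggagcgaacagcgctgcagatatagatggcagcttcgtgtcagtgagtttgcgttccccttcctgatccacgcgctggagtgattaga
Klf15: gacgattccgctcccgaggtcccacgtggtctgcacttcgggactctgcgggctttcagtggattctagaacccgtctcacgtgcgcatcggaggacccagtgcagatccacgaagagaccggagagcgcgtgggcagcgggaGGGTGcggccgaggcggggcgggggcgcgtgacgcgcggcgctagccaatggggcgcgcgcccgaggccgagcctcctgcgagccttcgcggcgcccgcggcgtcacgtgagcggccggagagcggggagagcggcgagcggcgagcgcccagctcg

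Of the 10 members, 8 had a promoter in the RefSeq table. The MEF2 consensus, searched on both strands, was found in 1 of these windows, that of Klf2, where CTAAATTTAG begins 118 bases before the start. MEF2 factors carry the flow signal to Klf2. Of all 32851 promoters in the table, 3.19% held a match to it. No window of a member held a CArG box, the site of serum response factor, against 1.63% of all promoters. CACCC was found once in the Klf2 window, 3 times in that of Klf7, once in that of Klf15 and not in that of Klf4. It is common, with a match in 57.5% of all promoters. GGGCGG, the GC box, was in 2 places in the Klf2 window, 4 in that of Klf4, 1 in that of Klf7 and 1 in that of Klf15, and was in 35.7% of all promoters; no match to one motif shares a base with a match to another in these 4 windows. The windows were GC-rich, at 69.3% for Klf2, 74.3% for Klf4, 58.3% for Klf7 and 73.3% for Klf15, beside a median of 52.7% over all promoters. The members with the 3 largest differences thus had no marked motif in common: Klf4 had no capital in its window, and the MEF2 match was in Klf2 alone of the 8. The GC box, which is not marked, was in all 3 of their windows and also in that of Klf15.

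The members were lower in SA lungs as a group, and 3 of them, Klf4, Klf7 and Klf2, were at about the same fraction of the WT level. All 10 differences were below 0, where 39.6% of all genes were. In 8 of the 10 both SA libraries lay below both WT libraries, which held for 22.9% of all genes. The median difference of the 10 was -0.36, beside 0.061 for all genes. Past the threshold, 1 of the 10 was called lower and 0 higher by limma, against 0.148% and 0.163% of all genes; at an unadjusted p under 0.05 there were 7, all lower, against 10.9% of all genes. The genes called over the whole table numbered 40, 21 higher and 19 lower, and this split was 169 and 307 when each library was centred on its median. The members and the result for several of them were known when they were chosen, so these counts describe the family and are no test of it.

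**Figure D1:**
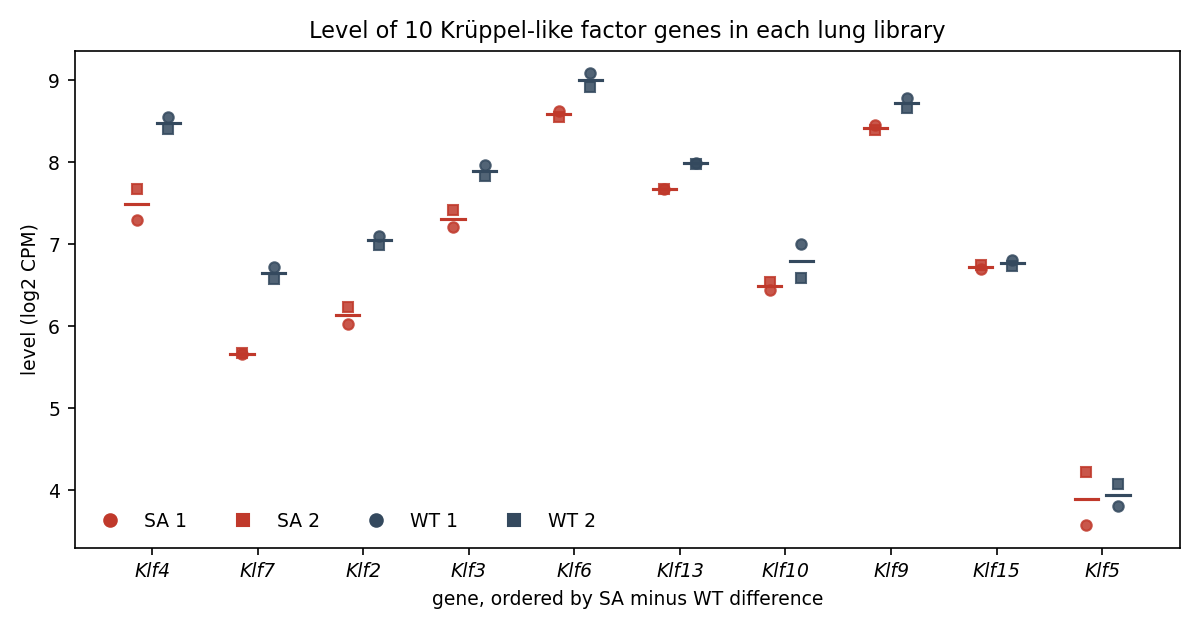
Level in log2 CPM of each of the 10 KLF genes in the 2 SA and 2 WT lung libraries, with circles for replicate 1, squares for replicate 2 and lines for group means. The SA points lie below the WT points in 8 genes and overlap them in Klf15 and Klf5.

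Klf2 and Klf4 are the shear-responsive pair. Klf2 (ENSMUSG00000055148, chromosome 8, 72319033 to 72321656, plus strand) was at 6.03 log2 CPM in SA 1 and 6.24 in SA 2, against 7.10 in WT 1 and 6.99 in WT 2. Both SA lungs were lower than both WT lungs, with a gap of 0.75 between the nearest libraries. The difference was -0.91 ± 0.10 (SE; 95% interval from -1.17 to -0.65), that is 0.531 times the WT level, with an adjusted p of 0.0502 (limma). It missed the threshold, and 278 genes had an adjusted p from 0.05 up to that of Klf2. Genes of unequal unadjusted p by limma shared this adjusted value, such as Thbs1 (0.00031) and Piezo1 (0.0011). The adjusted value thus does not measure how near Klf2, with an unadjusted p of 0.00049, came to the threshold. The gene's reads were 1786 and 2896 in SA and 4208 and 4012 in WT, so counting error was small beside these differences. Klf4 (ENSMUSG00000003032, chromosome 4, 55527143 to 55532466, minus strand), which is also a pluripotency and epithelial barrier factor, was at 7.30 log2 CPM in SA 1 and 7.67 in SA 2, against 8.55 in WT 1 and 8.41 in WT 2. Its SA libraries were further apart than those of Klf2, and still both below WT. The difference was -0.99 ± 0.15 (SE; 95% interval from -1.39 to -0.60; adjusted p = 0.058, limma), or 0.502 times the WT level. SA 1 was the lower SA library for both genes, and WT 2 the lower WT library.

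Klf7, studied mainly in neurons and in fat, was the member that passed the threshold. Klf7 (ENSMUSG00000025959, chromosome 1, 64029447 to 64122282, minus strand) was at 5.65 log2 CPM in SA 1 and 5.67 in SA 2, against 6.72 in WT 1 and 6.57 in WT 2. Its SA libraries nearly coincided and the gap to WT was 0.90. It fell by 0.98 on the log2 scale (SE 0.071; 95% interval of the difference from -1.18 to -0.79; adjusted p = 0.043, limma), to 0.506 times the WT level. The call was lost when any 1 of the 4 libraries was left out, although the difference then stayed between -1.06 and -0.91. Its exons overlap those of the antisense gene Gm13748, which had 1 and 5 reads in SA and 1 and 13 in WT, and of Gm26649, which had none; the sources used here do not say whether counting used strand. Of all genes, 0.833% were at -0.90 or below. That cut lies just above the values of Klf2, Klf4 and Klf7, so the share describes their place and is no test. Between Klf2, Klf4 and Klf7 the intervals overlapped, and a difference between them was not tested.

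Klf3, Klf6 and Klf13 had smaller differences, also with no overlap between genotypes, and that of Klf13 was close in size to those of Klf9 and Klf10. Klf3, a repressor that recruits CtBP proteins, was at 7.21 log2 CPM in SA 1 and 7.41 in SA 2, against 7.96 in WT 1 and 7.82 in WT 2. The difference was -0.58 ± 0.098 (SE; adjusted p = 0.065, limma). Klf6, an injury-responsive activator and the member with the most reads, was at 8.62 log2 CPM in SA 1 and 8.54 in SA 2, against 9.08 in WT 1 and 8.91 in WT 2. In contrast to Klf2, Klf3 and Klf4, its SA 2 library was the lower one. The difference was -0.41 ± 0.090 (SE; adjusted p = 0.089, limma). Klf13, known from lymphocytes for driving late expression of the chemokine gene Ccl5, was at 7.67 log2 CPM in SA 1 and 7.67 in SA 2, against 7.99 in WT 1 and 7.97 in WT 2. This was the tightest member, with an SD of 0.0015 in SA and 0.015 in WT. Its difference was -0.31 ± 0.052 (SE; adjusted p = 0.064, limma), or 0.804 times the WT level. The exons of Klf3 overlap those of the antisense gene Gm20033, which had 26 and 33 reads in SA and 32 and 44 in WT, few beside the 4056 and 6535 reads of Klf3 in SA and 7643 and 7174 in WT.

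Klf9 and Klf15 are targets of the glucocorticoid receptor, and Klf10 is an early target of TGF-beta. Klf9 was at 8.45 log2 CPM in SA 1 and 8.39 in SA 2, against 8.78 in WT 1 and 8.66 in WT 2. The genotypes did not overlap, and the difference was -0.30 ± 0.076 (SE; adjusted p = 0.11, limma). Klf15, which governs amino acid and fat metabolism in muscle and liver, was at 6.69 log2 CPM in SA 1 and 6.75 in SA 2, against 6.81 in WT 1 and 6.73 in WT 2. Here the genotypes overlapped. The difference was -0.048 ± 0.058 (SE; 95% interval from -0.20 to 0.11; adjusted p = 0.62, limma), so that a fall as large as that of Klf9 lay outside the interval. Klf10 was at 6.43 log2 CPM in SA 1 and 6.54 in SA 2, against 7.0 in WT 1 and 6.59 in WT 2. The SA libraries were lower by a gap of 0.050 only, and WT 1 stood apart. The difference was -0.31 ± 0.15 (SE; adjusted p = 0.28, limma), and it was -0.10 without WT 1 and -0.52 without WT 2. Klf5, an epithelial factor of airway and alveolar type 2 cells, was the member with the fewest reads, 325 and 713 in SA and 426 and 533 in WT. It was at 3.57 log2 CPM in SA 1 and 4.22 in SA 2, against 3.80 in WT 1 and 4.08 in WT 2. Its genotypes overlapped and its difference was -0.044 ± 0.25 (SE; 95% interval from -0.73 to 0.65; adjusted p = 0.92, limma), an interval too wide to exclude a difference like that of Klf3. The sign for Klf5 turned without SA 1 and without WT 2.

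**Figure D2:**
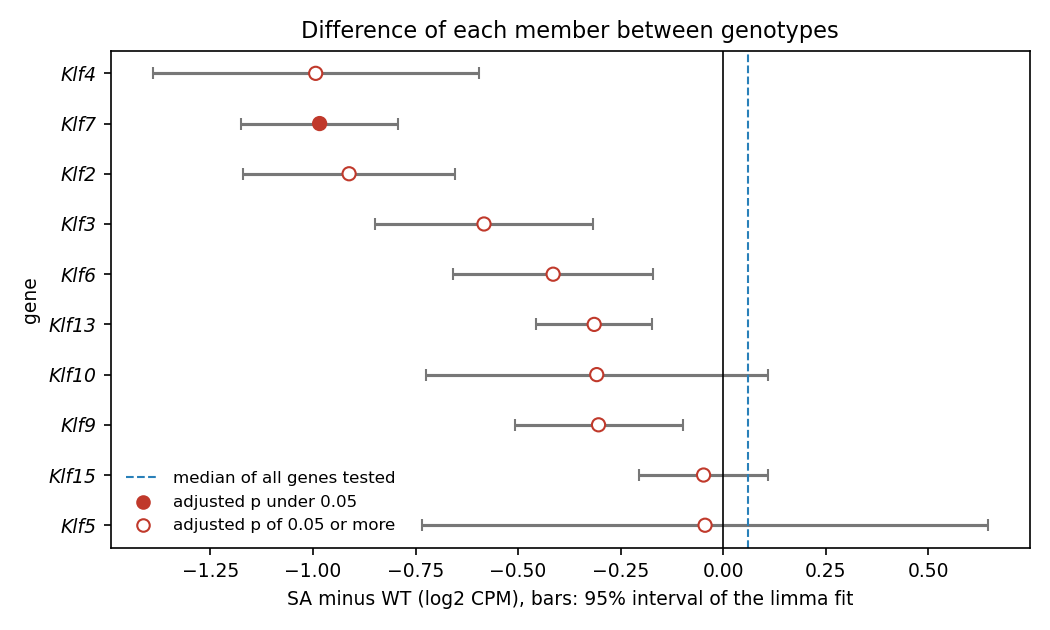
SA minus WT difference in log2 CPM for each member, with bars for the 95% interval of the limma fit and a dashed line at the median of all genes tested. Klf4, Klf7 and Klf2 lie between -0.99 and -0.91, Klf7 alone is filled for an adjusted p under 0.05, and the intervals of Klf10, Klf15 and Klf5 include 0.

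The order of the levels shifted at its top. Levels were set side by side per length, as RPKM (CPM divided by the kilobases of exon), with exon lengths from GENCODE M21, which need not be the annotation used for counting. In SA lungs Klf6 led at 87.4 RPKM, followed by Klf9 at 71.1 and Klf4 at 59.2, with no overlap between these neighbours. In WT lungs Klf4 and Klf6 were level at the top, at 117.1 and 116.6 RPKM, and their libraries overlapped. Klf2 was at 38.1 RPKM in SA and 71.5 in WT. Its SA libraries overlapped those of its neighbour Klf15, at 37.8 in SA, and its WT libraries stood clear of it, at 39.1 in WT. The remaining places were the same in both genotypes, with no overlap between neighbours within a genotype: Klf13 (27.0 in SA and 33.6 in WT), Klf10 (21.4 and 26.8), Klf3 (14.2 and 21.2), Klf7 (6.23 and 12.3) and Klf5 (2.93 and 2.96). Counted as CPM, the 10 genes together had 1570 and 1631 in SA and 2358 and 2146 in WT. Klf2 and Klf4 made up 14.2% and 17.1% of that sum in SA, against 21.7% and 21.7% in WT. Klf15 made up 6.58% and 6.59% in SA, against 4.74% and 4.95% in WT.

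**Figure D3:**
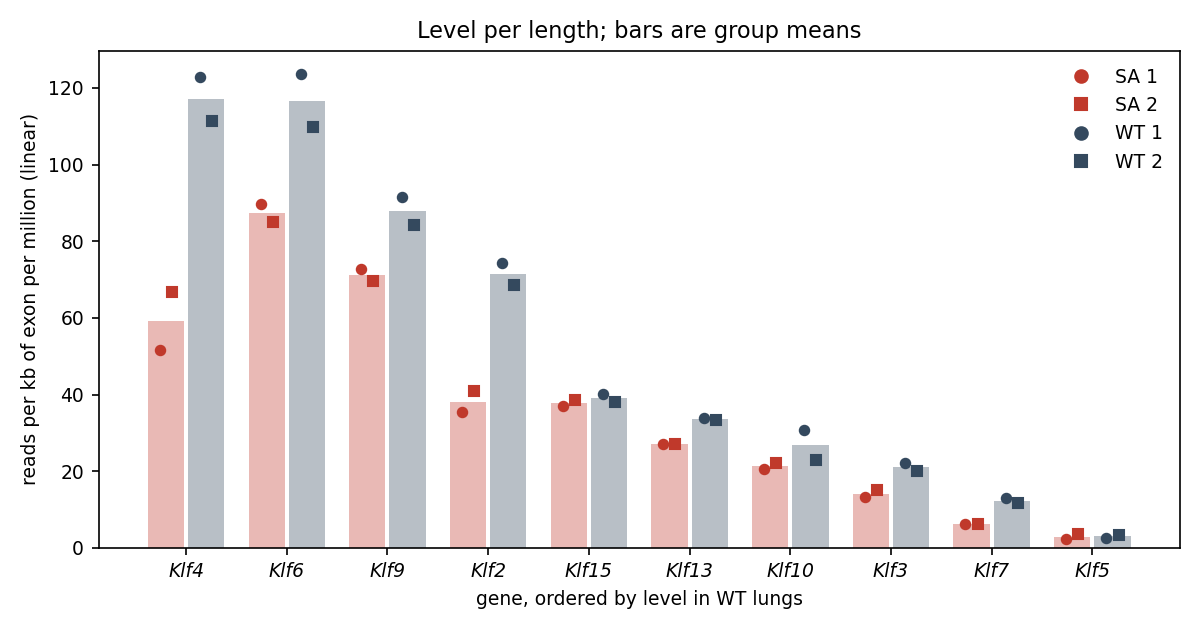
RPKM of the 10 members in order of their WT level, on a linear axis, with bars for group means and points for the 2 libraries of each genotype. In SA Klf4 is behind Klf6 and Klf9, and in WT Klf4 and Klf6 are level at the top.

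The transcripts of the members have few introns and unequal 3′ ends. On the coding transcript with the longest reading frame, the members had from 1 to 5 introns, where the median of 12129 coding genes tested was 8. The pentamer ATTTA, the core of AU-rich elements that shorten the life of many immediate-early mRNAs, occurred 18 times in the 6266 bases of the Klf7 3′ UTR. Of the coding genes tested, 98.9% had fewer, a count that grows with the length of the UTR. Per kilobase Klf7 had 2.87, above 78.4% of the coding genes, beside 2.68 for Klf10, 2.48 for Klf9, 1.36 for Klf2, 1.02 for Klf4 and a median of 1.24. The Klf2 3′ UTR of 737 bases and the Klf4 3′ UTR of 982 bases held 1 each, which is the median of the coding genes. Of the other members, Klf9 had 8, Klf3 and Klf6 had 7, Klf5 and Klf10 had 4, Klf13 had 3 and Klf15 had 2. The longer element TTATTTATT was found in 1 of the 10 members, Klf5, and in 7.11% of the coding genes.

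Of the 7 further KLF genes looked for, 2 were in the filtered table, and both were lower in SA without overlap. Klf16 was at 3.51 and 3.58 log2 CPM in SA and 3.92 and 4.0 in WT, a difference of -0.41 ± 0.094 (SE; adjusted p = 0.093, limma). Klf11, a TGF-beta-inducible relative of Klf10, was at 5.81 and 5.87 in SA and 6.19 and 6.04 in WT, a difference of -0.28 ± 0.076 (SE; adjusted p = 0.12). Outside the filtered table, Klf8 had 161 and 233 reads in SA and 152 and 198 in WT, Klf12 had 93 and 152 in SA and 112 and 131 in WT, and the erythroid factor Klf1 had 5 to 7 reads in each library. Klf14 had 0 and 1 reads in SA and 0 and 0 in WT, under the floor in both. Of the SP factors, the nearest relatives, 4 were in the filtered table, with 2 higher and 2 lower. Their median difference was 0.0031, and 0 of the 4 passed by limma over all genes or at an unadjusted p under 0.05. Sp1 and Sp3, both widely expressed, differed by -0.089 and 0.093. Sp2, outside the filtered table and named after its value was seen, was lower without overlap, at 2.11 and 2.17 log2 CPM in SA and 2.44 and 2.77 in WT (difference -0.46 ± 0.16, SE; unadjusted p = 0.0119 and adjusted p = 0.146 in the limma fit of the unfiltered table). Genes encoding proteins that act on KLFs, 8 corepressors and ubiquitin ligases, had a median difference of -0.061. Of these, 6 were lower and 2 higher, and 4 were lower without overlap, against 22.9% of all genes. By limma 0 passed over all genes, and 2 were lower at an unadjusted p under 0.05, against 10.9% of all genes. Smurf1 and Sin3a were those 2, at -0.32 and -0.19, and Ctbp1 and Ctbp2, the partners of Klf3, were at -0.10 and -0.085.

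Genes placed upstream of Klf2 and Klf4 differed in both directions. The list held 17 measured genes: flow sensors, the kinases Map3k2 and Map3k3, MEK5, ERK5, the MEF2 factors, Hdac5, Hdac7 and the CCM complex. It was not split by whether a gene raises or restrains Klf2 and Klf4, so its counts give no direction of input. In SA, 13 were lower and 4 higher, with a median of -0.11. Of these, limma called 0, with an unadjusted p under 0.05 in 5 lower ones and 1 higher. The kinase genes themselves had small differences. Map2k5, encoding MEK5, was at 3.87 and 3.84 log2 CPM in SA and 3.98 and 3.67 in WT, with overlap. Mapk7, encoding ERK5, was at 4.14 and 4.06 in SA and 4.24 and 4.17 in WT, lower without overlap. Its difference was -0.10 ± 0.086 (SE, adjusted p = 0.47, limma). Of the MEF2 genes, Mef2a and Mef2d were lower in SA and Mef2c was higher. Mef2d was at 5.01 and 5.31 log2 CPM in SA and 5.54 and 5.74 in WT, without overlap. Its difference was -0.48 (SE 0.14, adjusted p = 0.13, limma). Mef2a was at 6.74 and 6.86 log2 CPM in SA and 7.34 and 7.22 in WT (difference -0.48 ± 0.076, SE; adjusted p = 0.060, limma). Mef2c, which is abundant in muscle, was at 6.30 and 6.50 in SA and 5.66 and 5.83 in WT (difference 0.66 ± 0.10, SE; adjusted p = 0.059). Markers of cardiac muscle were higher in SA for 9 of 9 genes, and their part in the Mef2c value was not tested. The mechanosensitive channel gene Piezo1 differed by -0.52 (adjusted p = 0.0502) and Heg1, the receptor of the CCM complex, by -0.66 (adjusted p = 0.052).

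Genes known to be raised by Klf2 or Klf4 and genes known to be held down by them were both lower on the median. The amounts hung on single libraries and on the processing. Of 10 measured genes of the first kind, 7 were lower and 3 higher, with a median of -0.14. The median was -0.29 without SA 1 and -0.074 without SA 2. It was -0.026 with genes filtered at a mean of at least 1 log2 CPM. Of these 10 genes limma called 0, while 4 had an unadjusted p under 0.05, all lower. Those 4 were Cldn5, an endothelial tight junction gene (-1.0), S1pr1, a sphingosine phosphate receptor (-0.66), Nos3, the endothelial nitric oxide synthase (-0.41), and Adamts4, a matrix protease (-1.18). Thbd, encoding thrombomodulin and a standard readout of Klf2 in endothelium, was at 10.07 and 9.88 log2 CPM in SA and 10.31 and 10.16 in WT (difference -0.26 ± 0.13, SE; adjusted p = 0.27, limma). Of 7 measured genes of the second kind, 5 were lower and 2 higher (median -0.23; -0.026 without WT 2 and -0.62 with quantile normalization), with 0 past the threshold by limma and 2 lower at an unadjusted p under 0.05. One of them was Thbs1, a thrombospondin that Klf2 and Klf4 repress (-1.19; adjusted p = 0.0502). Vcam1, the adhesion molecule that Klf2 holds down, was at 6.04 and 5.84 log2 CPM in SA and 5.97 and 5.96 in WT, with overlap. The adhesion gene Sele, named after its value was seen, is outside the filtered table and was at 1.86 and 1.83 in SA and 2.68 and 2.85 in WT. Ptgds, of the first kind and also outside that table, was higher in SA without overlap. It was at -0.82 and -0.43 in SA and -1.85 and -1.46 in WT. Its reads were few, 15 and 28 in SA and 8 and 11 in WT.

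Immediate-early genes, a class to which Klf2, Klf4, Klf6 and Klf10 are often counted, had the lowest median of the lists set beside the family. Of 11 measured genes 10 were lower in SA and 1 higher, with a median of -0.74, and 2 were called lower over all genes by limma. These were Nr4a1, an orphan nuclear receptor, which fell by 1.49 (SE 0.060; adjusted p = 0.028), and Dusp1, a phosphatase of MAP kinases, which fell by 1.05 (SE 0.069; adjusted p = 0.041). This list was known to be lower in these samples when the members were chosen. The glucocorticoid list, beside Klf9 and Klf15, had 5 of 7 measured genes lower and 2 higher (median -0.20), with 0 past the threshold by limma and 3 lower at an unadjusted p under 0.05. Per1 (-0.72), Sgk1 (-0.54) and Zbtb16 (-0.31) were those 3, and Tsc22d3, a gene that glucocorticoids induce strongly, was at 0.15. The TGF-beta list, beside Klf10, had 6 of 7 measured genes lower (median -0.28), of which limma called 0; an unadjusted p under 0.05 was reached by 4 of the lower ones, among them Id1 (-0.47) and Skil (-0.40), and by 1 higher.

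**Figure D4:**
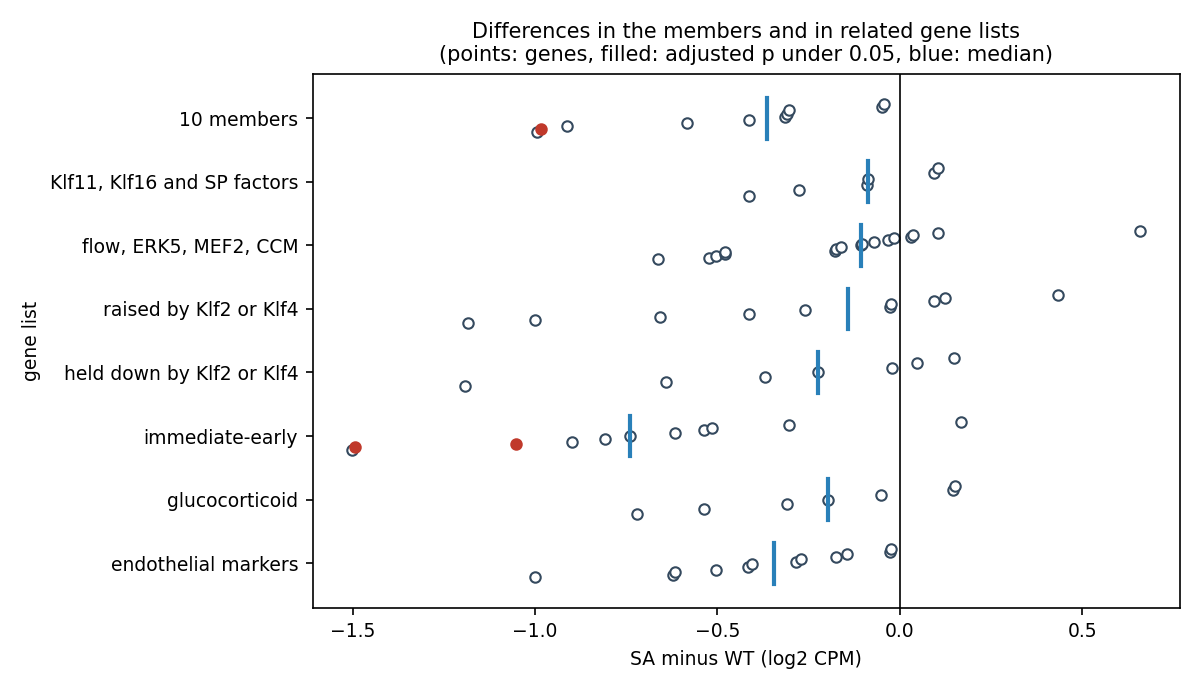
SA minus WT difference in log2 CPM of each gene (points) in the 10 members and in 7 related lists, with the median of each list as a blue bar and genes past an adjusted p of 0.05 filled. The immediate-early list has the lowest median, -0.74, and holds 2 filled genes, and the members hold 1.

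Endothelial markers, and likewise most fibroblast markers, were lower alongside Klf2 and Klf4. All 12 endothelial markers were lower in SA, 9 of them without overlap, with a median of -0.34 and 0 past the threshold by limma (7 lower at an unadjusted p under 0.05). Their summed level was 3787 and 3249 CPM in SA and 4895 and 4252 CPM in WT, a ratio of SA to WT of 0.769. Of 7 fibroblast markers, 5 were lower without overlap and 2 higher, with a median of -0.45 and 0 past the threshold by limma (5 lower at an unadjusted p under 0.05). They summed to 1297 and 1453 CPM in SA and 1558 and 1700 CPM in WT, so the lower level was not particular to endothelium. In bulk RNA, fewer cells of a type and less RNA per cell cannot be told apart. Set against this sum, a comparison chosen after the data were seen, Klf2 had 17.2 and 23.2 CPM per 1000 CPM of endothelial markers in SA, against 28.1 and 29.8 in WT. Klf4 had 41.6 and 62.7 in SA, against 76.4 and 79.9 in WT. Klf7 had 13.3 and 15.7 in SA, against 21.6 and 22.4 in WT. For these 3 genes the SA libraries were below the WT libraries, at 0.699, 0.667 and 0.660 times WT. Of the other members, Klf3, Klf5, Klf6, Klf9, Klf10 and Klf13 overlapped between genotypes on this scale. Klf15 was higher in SA, at 27.3 and 33.1 against 22.8 and 25.0 in WT. Division by a sum at 0.769 times WT raises every gene in SA. The share of all genes without overlap on this scale was not computed. The outcome also changed with the markers used. Set against summed cardiac or skeletal muscle markers, all 10 members were lower in SA without overlap. Against summed adipocyte genes all 10 overlapped. The members are also made by cells other than endothelium, and the part of cell composition in their differences was not tested.

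Other cell types that make KLFs gave the following values. Skeletal muscle markers, beside Klf15, summed to 2353 and 3374 CPM in SA and 1051 and 1364 CPM in WT, with 8 of 8 genes higher in SA. Smooth muscle markers were higher in SA for 6 of 6 genes, with a median of 0.44 and sums of 1120 and 1340 CPM in SA and 793.4 and 911.2 CPM in WT. Adipocyte genes followed the replicate number more than the genotype, at 514.0 and 1647 CPM in SA and 282.2 and 1488 CPM in WT. Klf15, set beside these sums, differed by -0.048 between genotypes, and the part of muscle or fat in that value was not tested. Alveolar type 2 markers, beside Klf5, were lower in SA for 7 of 7 genes with a median of -0.14, which turned to 0.0047 without SA 2 and to 0.028 without WT 1. Alveolar type 1 markers were lower for 7 of 7 with a median of -0.18, which was -0.037 without SA 2. Club and ciliated cell markers were higher in SA for 8 of 8, with a median of 0.84. Macrophage markers, beside Klf4, were higher in SA for 4 genes and lower for 4, with a median of 0.065. All 4 higher ones were without overlap and had an unadjusted p under 0.05 by limma. Of the 4 lower ones, 1 was without overlap and 0 had such a p. Neutrophil markers were split 3 and 3. Of the T cell markers, beside Klf2 and Klf13, 3 of 3 in the filtered table were higher, with a median of 0.40 that turned to -0.023 with quantile normalization. Outside it Cd3d, Cd3g and Cd8a were higher by 0.52, 0.80 and 0.64, and Cd3e was lower, at -0.16 and -0.24 log2 CPM in SA and -0.0053 and 0.082 in WT. Both B cell markers in the filtered table were higher, with a median of 0.37 that turned to -0.29 without WT 1, and 5 of 5 erythroid markers were lower, with a median of -0.14 that turned to 0.13 without SA 2. The part of these cells in the values of the members was not tested.

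The genes whose profile over the 4 libraries was nearest to a member were found by Euclidean distance between profiles centred on their own mean, among 11188 named coding genes. For Klf7 these were Lrrc8c (distance 0.034), a subunit of the volume-regulated anion channel, Dusp1 (0.073), Kcnj2, a potassium channel (0.10), and Adamts15, a matrix protease (0.11). For Klf2 they were Lrrc8a (0.066), another subunit of that channel, Adamts15 (0.072), Nfatc1, a calcium-responsive transcription factor (0.089), and Synpo, an actin-binding protein (0.10). For Klf4 they were P2ry2, a nucleotide receptor (0.13), Klf2 itself (0.14), Csrnp1 (0.15) and Nes, encoding nestin (0.15). Over only 4 libraries in 2 groups such distances describe size and spread of the genotype difference and little more. Klf2 being second nearest to Klf4 among 11188 genes is a description of that kind.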

How the data were processed

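Stranded libraries were made from lung RNA depleted of ribosomal RNA, per the labels' protocols. The submitters' processing notes name Subread, featureCounts, limma and GRCm38; the sources used here give no versions, settings or annotation release. The authors deposited a filtered and an unfiltered table of log2 CPM values, equal where both list a gene, with no statement of the filter. Undoing the log gave whole reads for 100% of genes within 0.001 read, summing to the totals.

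The deposited log2 values of the filtered table were tested, SA against WT, in limma 3.58.1 (R 4.3.3) with genotype as the only term and a mean-variance trend, two-sided, with 2 residual and 2.25 prior degrees of freedom. Alternatives were median centring, quantile normalization, the replicate block, the unfiltered table, its genes with a mean log2 CPM of at least 1, no trend, a robust trend, 2 reads added, voom on the recovered reads and leaving out each library. Levels per exon length and set against summed markers were computed in Python 3.11.15. Genes named from lists are those past the threshold or, failing that, among the 4 with the lowest p, with others placed beside them for their role after values were seen (such as Map2k5, Mapk7, Thbd, Vcam1 and Ctbp2). Counts of measured genes in a list cover the filtered table only. The members and the lists were chosen with earlier results of these data known.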

Additional observations from a re-analysis of the deposited data

Results flagged for a closer look

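Klf17, a KLF gene that the deposited filter left out, had 0 reads in SA 1 and 8 in SA 2, against 0 reads in WT 1 and 0 in WT 2. It was picked up because reads above the floor of 3 appeared in an SA library for a gene outside the tested table with none in WT.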

How the results depend on the processing

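The count of members called was 1, and it was 7 with the replicate block, 5 in the unfiltered table, 4 with median centring, 3 with a robust trend, 2 with voom and library totals, 2 with voom and median-of-ratios scaling, 0 with quantile normalization and 0 without the trend, all of them lower. Over all genes the 40 calls became 3179, 2213, 476, 611, 268, 386, 0 and 1 under these settings in the same order. Leaving out 1 library gave 0 to 6 genes and 0 members each time, with 6 to 8 members and 1812 to 2791 genes at an unadjusted p under 0.05 by limma; with quantile normalization these were 7 and 3157, and 7 members without the trend. Why calls were lost was not tested, and a fit with a library left out also has fewer samples. Klf7 was called under 8 of the 14 alternatives, Klf2 under 6, Klf4 under 4 and Klf3 under 3. Their differences ranged over all settings from -1.07 to -0.91 for Klf7, -1.02 to -0.81 for Klf2, -1.18 to -0.81 for Klf4 and -0.68 to -0.48 for Klf3. Klf5 turned to 0.28 without SA 1 and to 0.094 without WT 2, in a range from -0.37 to 0.28 with 1 library left out; no other member changed sign under these alternatives. The replicate numbers are not said to mark a shared litter or day. Deviations of same-numbered libraries from their group means correlated at 0.644 over 12041 genes, with only 2 pairs, and the block called Klf2, Klf3, Klf4, Klf6, Klf7, Klf9 and Klf13, against 9.39% of all genes called lower. Depth limits Klf1, Klf14 and Klf17, which had at most 8 reads in a library.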
